A study of Caenorhabditis elegans with 2 samples.

Results

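The genes described are the 255 nuclear microRNA genes of Caenorhabditis elegans that remain when mir-51 to mir-56 are set aside, out of 261 nuclear microRNA genes and 46890 nuclear genes in the annotation of WBcel235 (ce11) by Ensembl, release 115. They were chosen by their annotated class alone. At each of them the question was whether a binding peak of the predicted zinc finger protein M03D4.4, of the C2H2 kind, had its summit between 1000 bp upstream and 500 bp downstream of the annotated 5' end, called the window here. The protein was recovered by chromatin immunoprecipitation with an anti-GFP antibody from sonicated chromatin, and the recovered DNA was sequenced. The worms were of strain OP696, with the genotype unc-119(tm4063) III and the inserted transgene wgIs696, whose M03D4.4 product carries GFP and FLAG at its C-terminus. The labels do not name the promoter of the transgene, and they give 1 insertion. Pooled male and female embryos of mixed stage were collected 2 h after synchronization by egg bleaching. There was 1 group of 2 biological replicates, without a second condition, so all comparisons are between genes or between the replicates. The lists hold no expression values, so the embryonic stage was not checked against marker genes, and peaks of no other tagged protein were used here, so sites of M03D4.4 and sites recovered with any tagged protein cannot be told apart. Coordinates are 1-based on ce11.

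MicroRNA genes are transcribed as longer primary transcripts, which Drosha and its partner Pasha trim to a hairpin in the nucleus and Dicer cuts to a short duplex in the cytoplasm. One strand, the mature microRNA, is loaded into an Argonaute protein and guides it to messenger RNAs that pair with the seed, the bases near its 5' end. Several hairpins can lie on 1 primary transcript, and others lie within introns of coding genes, so the annotated 5' end of a hairpin is often not the start of transcription. In C. elegans embryos the mir-35 family, present from the oocyte onward, is required for development, whereas let-7 and lin-4 are known for timing cell fates in the larva.

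Of the 255 genes, 28 had in their window a summit from the list of peaks that passed the authors' irreproducible discovery rate (IDR) threshold. This is 11.0%, with an exact 95% interval of 7.42 to 15.5%. The same held for 4.42% of all nuclear genes, for 6.26% of nuclear genes other than piRNA genes, and for 4.69% of protein-coding genes. The 28 genes stood at 20 distinct summits and 19 loci, and 4 of these loci held several of them. Their intervals cover counting error only and take genes that share a summit as separate, so they are too narrow.

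The mature microRNAs below, 1 strand for each gene, are from genes with a summit that share a seed with a gene at another place. Not all such genes were included, here or in the seed groups below, for the reason given with the processing. The list adds mir-58a and 5 relatives that had no summit (mir-42, mir-81, mir-62, mir-44 and mir-72). The sequences were chosen because they show which members of a seed group stood beside a peak. They are the RefSeq sequences for WBcel235, found for 254 of the 255 genes, 5′ to 3′, with the seed (bases 2 to 8) in capitals.
mir-35 3p: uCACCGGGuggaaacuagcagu
mir-36 3p: uCACCGGGugaaaauucgcaug
mir-37 3p: uCACCGGGugaacacuugcagu
mir-38 3p: uCACCGGGagaaaaacuggagu
mir-39 3p: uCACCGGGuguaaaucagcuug
mir-40 3p: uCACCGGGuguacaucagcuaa
mir-41 3p: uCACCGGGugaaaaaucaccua
mir-42 3p: uCACCGGGuuaacaucuacaga
mir-58a 3p: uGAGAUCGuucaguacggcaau
mir-80 3p: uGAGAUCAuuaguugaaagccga
mir-81 3p: uGAGAUCAucgugaaagcuagu
mir-90 3p: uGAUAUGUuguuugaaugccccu
mir-62 3p: uGAUAUGUaaucuagcuuacag
mir-45 3p: uGACUAGAgacacauucagcu
mir-44 3p: uGACUAGAgacacauucagcu
mir-73 3p: uGGCAAGAuguaggcaguucagu
mir-74 3p: uGGCAAGAaauggcagucuaca
mir-72 5p: aGGCAAGAuguuggcauagcuga
mir-86 5p: uAAGUGAAugcuuugccacaguc
mir-87 3p: gUGAGCAAaguuucaggugugc

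The seed CACCGGG was shared by 8 genes, mir-35 to mir-42, of which 7 had a summit and mir-42 had none. GAGAUCA was the seed of 6 genes, of which mir-80 alone had a summit, and mir-58a carried GAGAUCG, which differs from the seed of mir-80 by G8A (mir-58a first, position counted from 1 at the 5' end of the mature strand). GACUAGA belonged to 4 genes, of which mir-45 had a summit, and the mature 3p strands of mir-45 and mir-44 printed above are identical. GGCAAGA belonged to 5 genes, of which mir-73 and mir-74 had a summit. GAUAUGU was shared by mir-90, with a summit, and mir-62, without. UGAGCAA was shared by mir-87, with a summit, and by mir-233 and mir-356a, without, and AAGUGAA by mir-86, with a summit, and mir-785, without. The overlapping hairpins mir-8186-1 and mir-8186-2, which lie on opposite strands, had the seeds AGCAAAG and CUGCUCA in common and shared 1 summit. In these groups, the genes with a common seed that both had a summit, mir-35 to mir-41, mir-73 with mir-74 and the mir-8186 pair, shared that summit.

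The DNA around the summit is shown for 5 loci, as 101 bp centred on it and read on the strand of the microRNA. They were picked because mir-35 to mir-41 share 1 summit, mir-58a and mir-80 belong to 1 family, and the windows of mir-80, mir-90 and mir-8186-2 hold the words that were searched for. Capitals mark the mir-35 hairpin in the mir-35 window. They mark the word CTCCGCC in that of mir-80, the repeat GAGAGAG in that of mir-90 and the word GGTTCGA in that of mir-8186-2, on either strand, and the mir-58a window holds none of these. The windows are chrII:11537611-11537711 for mir-35, chrIV:3233012-3233112 for mir-58a, chrIII:8865524-8865624 for mir-80, chrIII:8874346-8874446 for mir-90 and chrII:18922-19022 for mir-8186-2, on ce11, and the sequences are from RefSeq's WBcel235.
mir-35 window: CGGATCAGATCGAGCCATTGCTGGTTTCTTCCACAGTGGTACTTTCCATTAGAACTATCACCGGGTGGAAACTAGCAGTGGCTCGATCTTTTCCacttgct
mir-58a window: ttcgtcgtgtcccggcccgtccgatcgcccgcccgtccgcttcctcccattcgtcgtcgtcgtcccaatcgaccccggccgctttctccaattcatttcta
mir-80 window: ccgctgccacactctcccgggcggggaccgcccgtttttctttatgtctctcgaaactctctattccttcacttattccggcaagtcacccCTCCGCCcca
mir-90 window: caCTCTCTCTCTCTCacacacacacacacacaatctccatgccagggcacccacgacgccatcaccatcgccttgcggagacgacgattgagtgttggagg
mir-8186-2 window: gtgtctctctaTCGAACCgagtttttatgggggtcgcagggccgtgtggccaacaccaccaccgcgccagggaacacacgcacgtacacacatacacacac

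These windows were rich in G and C. The median G and C content at the 20 summits was 54.5%, with a range of 38.6 to 66.3%. It was 50.5% at all 1423 nuclear IDR summits, 37.6% in windows of the same length upstream of the 255 genes and 32.7% upstream of protein-coding genes. Upstream windows are not centred on a peak, so the 20 summits are best read against the other IDR summits.

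CTCCGCC, a word reported upstream of nematode microRNA genes, occurred in 1 of the 20 windows (5.00%), that of mir-80, and in 4.29% of all IDR summits. It also occurred in 4.71% of windows upstream of the 255 genes and in 2.05% of those upstream of protein-coding genes. The dinucleotide repeat GAGAGAG occurred in 2 of the 20, where overlapping copies in the mir-90 window make up 1 repeat, against 11.0% of all IDR summits and 2.60% upstream of protein-coding genes. GGTTCGA, the core of the internal promoter box of tRNA genes, occurred in 1 (5.00%), at mir-8186-2, against 7.52% of all IDR summits and 1.54% of those more than 500 bp from tRNA, snoRNA, snRNA and rRNA genes. All 3 words were searched on both strands, and with 20 windows the exact intervals reach from 0.127 to 24.9% for a single window.

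Beside the other classes of genes, the share among microRNA genes lay in the middle. An IDR summit stood in the window of 42.5% of 612 tRNA genes, 24.6% of 346 snoRNA genes and 12.4% of 129 snRNA genes, and of 8.01% of 7764 genes of the class ncRNA, 3.09% of 194 lincRNA genes and 0.657% of 15363 piRNA genes. All 6 genes of mir-51 to mir-56 had one. None of the 20 summits lay within 500 bp of a tRNA, snoRNA, snRNA or rRNA gene, where 318 of the 1423 IDR summits did (22.3%). The nearest such gene was 2704 bp away, at mir-2, and the median distance was 60928 bp.

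**Figure D1:**
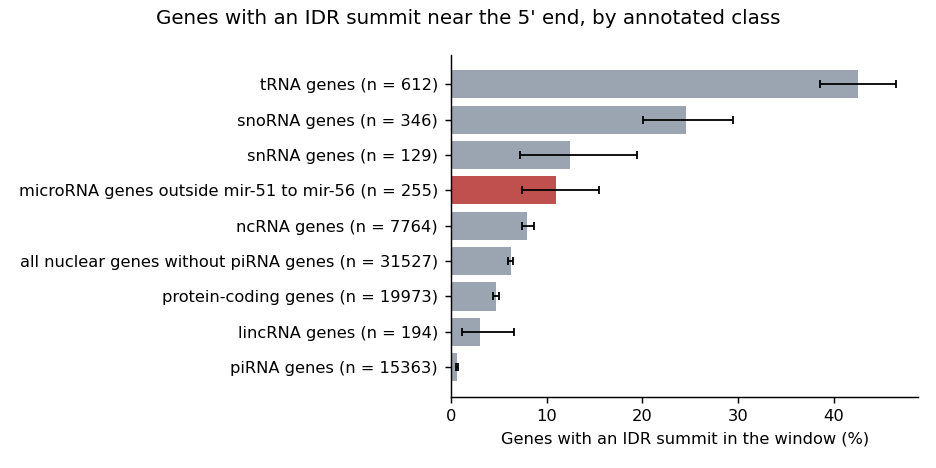
Percent of the genes of each annotated class with an IDR summit in the window (bars), with exact 95% intervals (lines, counting error only) and the number of genes in brackets. MicroRNA genes, in red, were at 11.0%, below tRNA and snoRNA genes and above protein-coding genes, and their interval overlaps that of ncRNA genes.

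The peaks at microRNA genes were not among the strongest of the experiment. The signal, the authors' own value for each peak and without a stated scale, ran from 149 to 418 at the 20 summits with a median of 197, and over all nuclear IDR peaks from 147 to 2198 with a median of 205. Their ranks among the 1423 nuclear IDR peaks ran from 192 to 1386, with a median of 772. The 711 strongest IDR peaks held 9 of the 20 summits and the weaker peaks held 11. Among the 9 were both summits of mir-55b, at ranks 244 and 494. Each of these also falls in the window of at least 1 of mir-54 to mir-56, which were set aside. With these 711 peaks alone, 9 microRNA genes had a summit, and their share was 0.946 times that of all other genes without piRNA genes, where with the whole list it was 1.77 times.

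In the replicate lists, which are long and relaxed and hold 30000 peaks each, all 28 genes had a summit in their window in both replicates. Of the 255 genes, 102 did (40.0%, exact 95% interval 33.9 to 46.3%), where the share over nuclear genes other than piRNA genes was 31.0%. A further 109 had none in either replicate. The IDR list was made from these lists, and its 1423 nuclear peaks are the 1423 strongest nuclear peaks of the pooled list, so the lists are not independent of one another.

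Most summits lay upstream of the hairpin nearest to them. The window reaches 1000 bp upstream and 500 bp downstream, so most of its positions are upstream. Whether summits favour the upstream side beyond that was not tested. The median position was 121 bp upstream, with quartiles at 282 bp upstream and 32.8 bp downstream. From replicate 1 alone the median position was -205 bp, and from replicate 2 alone -88.5 bp. Upstream lay 13 summits, 12 of them within 500 bp, and downstream lay 7. Counting each gene with each of its summits gave 29 pairs, 20 with the summit upstream and 9 downstream. The nearest summits were 11 bp upstream of mir-8211, 14 bp downstream of the 5' end of mir-5549 and 29 bp downstream of that of mir-4932, and the farthest was 845 bp upstream of mir-354.

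**Figure D2:**
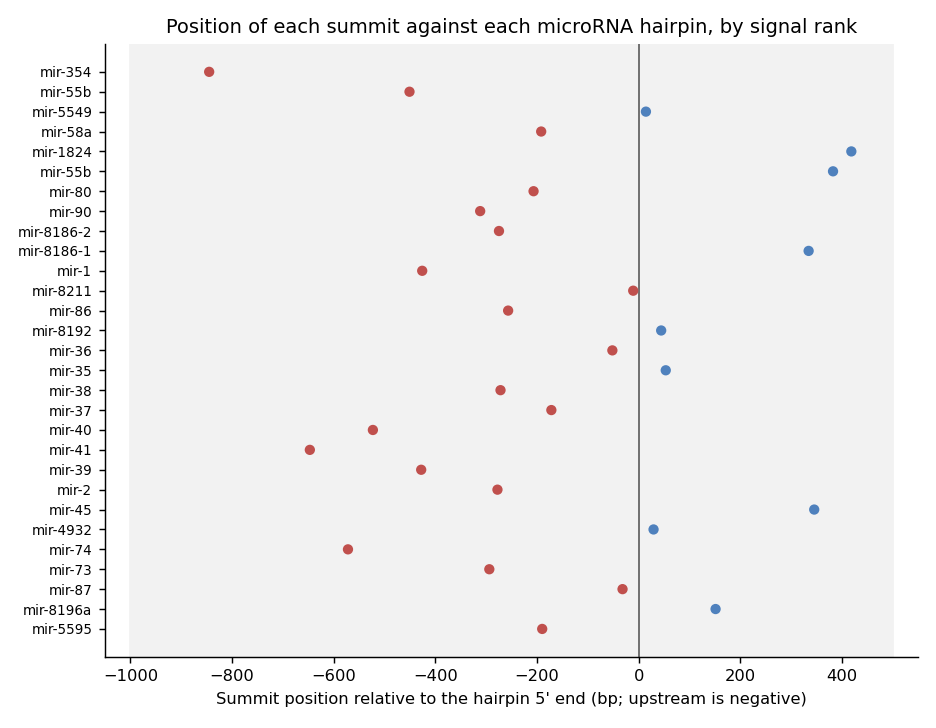
Position of each IDR summit relative to the annotated 5' end of each microRNA hairpin (bp, upstream negative), 1 line per pair of gene and summit, from the strongest peak at the top to the weakest. Red points are upstream (20) and blue points downstream (9). The grey band is the window, and the points of mir-35 to mir-41 show 1 summit seen from 7 hairpins.

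The family with the most genes at a summit was mir-35. The cluster mir-35 to mir-41 spans 797 bp on the plus strand of chromosome II, chrII:11537608-11538404, within an intron of the coding gene Y62F5A.9, which is read from the other strand. Its single IDR summit at position 11537661 lay inside the mir-35 hairpin, 53 bp downstream of its 5' end and 52 bp upstream of that of mir-36. The hairpins of mir-37, mir-38, mir-39, mir-40 and mir-41 began 172, 272, 428, 523 and 647 bp beyond it. Replicate 1 gave it 104, at rank 851, and replicate 2 gave it 82.4, at rank 1086, and 179 in the IDR list, at rank 929. The peak was 124 bp wide, where the median width of IDR peaks was 430 bp. Both replicates placed it within their 1423 strongest peaks.

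**Figure D3:**
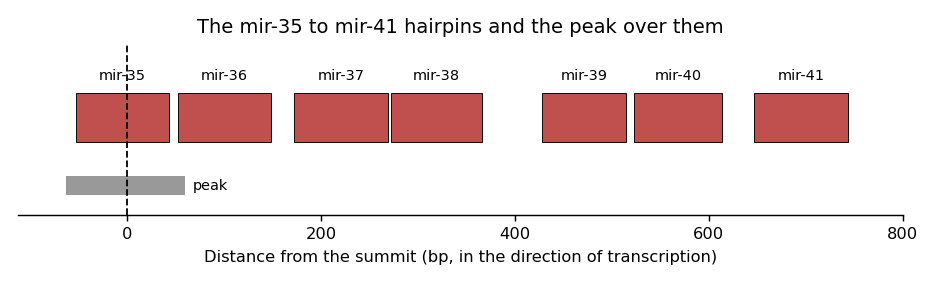
The 7 hairpins of the mir-35 cluster (red boxes) and the IDR peak (grey bar), by distance in bp from the summit (dashed line) in the direction of transcription. The peak covers mir-35 and the first bases of mir-36, and the hairpins of mir-37 to mir-41 lie beyond its end.

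The 8th gene with this seed, mir-42, lies elsewhere on the same chromosome, in a cluster with mir-43 and mir-44. It had no IDR summit. The strongest relaxed peak in its window stood at rank 5309 in replicate 1, with 51.8, and at rank 13334 in replicate 2, with 34.4. Since the 7 clustered genes share 1 summit, they weigh on every count. Without them 21 of 248 genes had a summit (8.47%), where 6.26% of all nuclear genes other than piRNA genes had one.

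The mir-58 family is related in seed to the bantam microRNA of Drosophila, and its members are among the abundant microRNAs of C. elegans. Of 10 listed names 8 were found in the annotation, and of these mir-58a and mir-80 had an IDR summit. At mir-58a, in an intron of Y67D8A.2 on the same strand (chrIV:3233254-3233350), the summit lay 192 bp upstream, and its signal was 129 in replicate 1, 141 in replicate 2 and 267 in the IDR list. At mir-80, outside coding genes (chrIII:8865270-8865367), it lay 207 bp upstream, with 121, 119 and 242. The replicates gave these peaks nearly equal signal, at ranks 557 and 364 for mir-58a and 634 and 500 for mir-80. Their sister gene mir-81 had 49.0 in replicate 1 and 32.1 in replicate 2, with the nearest IDR summit 1532 bp downstream of its 5' end, outside the window. The other 5 of the 8, mir-82, mir-58b, mir-2209a, mir-2209b and mir-2209c, had no peak in the window in at least 1 of the replicates. mir-58c, which was not on the list but has the seed of mir-80, had no IDR summit and no peak in either replicate.

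Near mir-80, on the same chromosome and strand, stood mir-90, in an intron of K01F9.2 (chrIII:8873987-8874084). Its summit lay 312 bp upstream. The peak had 83.6 in replicate 1 and 147 in replicate 2, and 240 in the IDR list. The replicates differed more here than at mir-58a and mir-80, with ranks of 1371 and 337. Its seed relative mir-62 lies in an intron, as a mirtron whose ends are set by splicing. Its relaxed peak 365 bp upstream had 77.6 and 60.8, and an IDR summit of signal 222 lay 672 bp downstream, outside the window.

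The other clusters with a summit were mir-73 with mir-74 and mir-86 with mir-8211. The summit at mir-73 (chrX:2368765-2368863) lay 294 bp upstream of that gene and 572 bp upstream of its neighbour mir-74, with a signal of 158 in the IDR list and 93.2 in replicate 1. No peak of replicate 2 overlapped this peak by 50% of either, so it was the only 1 of the 20 not matched there. Replicate 2 did hold a peak of signal 69.7 at rank 1626, with its summit 76 bp upstream of mir-73. Their relative mir-72, on another chromosome, had 54.5 and 46.8 in the relaxed lists. At mir-86 (chrIII:11936637-11936734), in an intron of Y56A3A.7, the summit lay 257 bp upstream of mir-86 and 11 bp upstream of mir-8211, with 79.4 in replicate 1 and 110 in replicate 2. It was thus ranked lower in replicate 1, at 1555, than in replicate 2, at 591.

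mir-45 of the mir-44 family (chrII:11880944-11881039) had its summit 345 bp downstream of its 5' end, past the end of the hairpin. Its peak had 108 in replicate 1 and 69.9 in replicate 2. The 3 relatives mir-44, mir-61 and mir-247 had no IDR summit. In the relaxed lists mir-44 had 51.8 and 34.4, mir-61 had 65.8 and 34.2, and mir-247 had no peak. At mir-87 (chrV:12038688-12038781), in an intron of kup-1, the summit lay 32 bp upstream and the replicates were close, at 79.0 and 80.0. Its relative mir-233 had a relaxed peak of 51.5 in replicate 1 and none in replicate 2.

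mir-1, a conserved microRNA of muscle, had a summit 426 bp upstream in sequence outside coding genes. The signal was 85.2 in replicate 1 and 131 in replicate 2, and 205 in the IDR list. Its relative mir-796 had no peak in any of the relaxed lists. mir-2, in an intron of ppfr-1, which encodes a protein phosphatase regulatory subunit, had a summit 278 bp upstream. Among the 19 summits matched in both replicates, their values differed most here, with 126 at rank 580 in replicate 1 and 46.5 at rank 5628 in replicate 2, a ratio of 2.71. The relatives mir-43, mir-250 and mir-797 had no IDR summit.

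**Figure D4:**
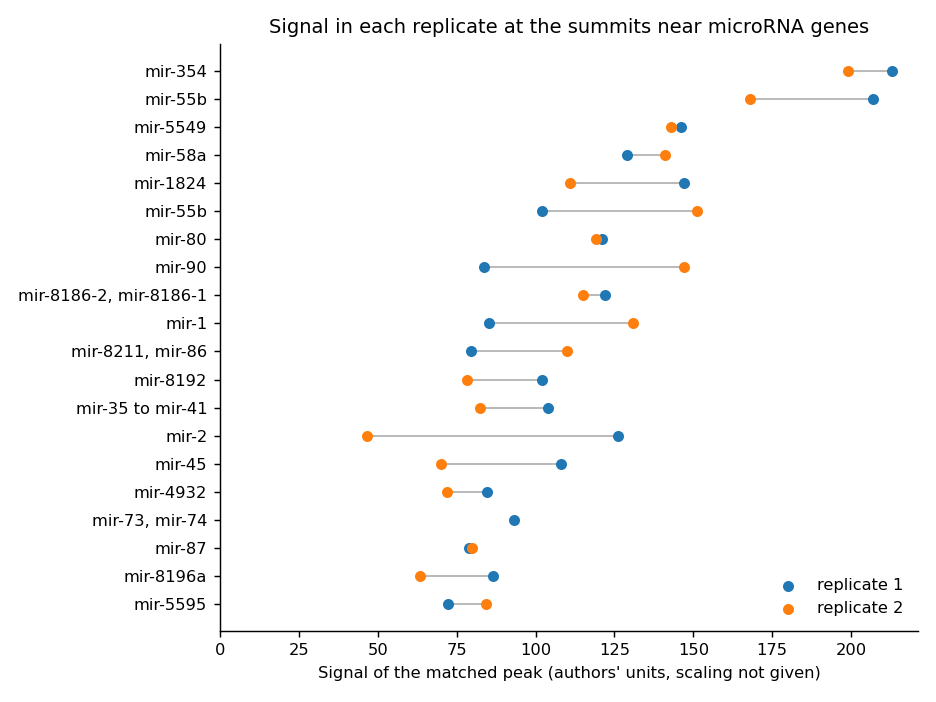
Signal of the matched peak in replicate 1 (blue) and replicate 2 (orange) for each of the 20 summits, from the strongest IDR peak at the top to the weakest, in the authors' units. The pairs of mir-58a, mir-80, mir-5549 and mir-87 lie close together, mir-2 and mir-90 lie far apart in opposite directions, and mir-73 has no matched peak in replicate 2.

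Among the 19 summits matched in both replicates, the rank was better in replicate 1 at 8 and in replicate 2 at 11. Ranked within each replicate, 12 of the 20 lay among the 1423 strongest peaks in both and 8 in only 1. The scale of the signal is not given, so ranks compare the replicates better than the values do.

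The summit also lay in the window of a protein-coding gene at 5 of the 20 summits (25.0%), which held 6 microRNA genes. Over all nuclear IDR summits this was so for 714 (50.2%). The median signal was 257 at these 5 and 185 at the other 15. Many of these 15 also lay in the window of a gene of the class ncRNA. At some such a gene was nearer than the hairpin, as at mir-58a (100 against 192 bp). At others it was farther, as at mir-80 (306 against 207 bp). The strongest summit of all, at mir-354, had 213 in replicate 1, 199 in replicate 2 and 418 in the IDR list. It lay 845 bp upstream of mir-354 but 233 bp upstream of rps-20, the ribosomal protein gene that contains mir-354, and 164 bp upstream of ekl-4. At mir-5549 the summit, with 146 and 143, lay 182 bp upstream of rfc-4, a replication factor C subunit gene, and 359 bp upstream of eef-1A.1, a translation elongation factor gene. At mir-1824 the summit, with 147 and 111, was 418 bp downstream of the hairpin's 5' end and 83 bp upstream of its host Y87G2A.18. At mir-4932, with 84.6 and 71.8, it lay 100 bp upstream of smn-1, the worm gene of the survival motor neuron protein, and 116 bp upstream of klp-16, a kinesin-like gene. At mir-8186-1 and mir-8186-2, a pair of hairpins that overlap on opposite strands, the summit, with 122 and 115, lay 566 bp upstream of gmeb-1. Which of the genes at such a summit the binding relates to was not tested.

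The remaining genes with a summit are of less studied kinds. At mir-8192, in an intron of the folliculin gene flcn-1, the signal was 102 in replicate 1 and 78.3 in replicate 2. At mir-8196a on X it was 86.4 and 63.3, and at mir-5595, in an intron of the chromatin remodelling gene nurf-1 on the other strand, it was 72.3 and 84.3. With 150 and 149 in the IDR list, mir-8196a and mir-5595 had the weakest peaks of the 20. mir-55b lies on the plus strand within the mir-54 to mir-56 cluster on X, and its 2 summits, of signal 362 and 252, each also fall in the window of at least 1 of those genes. Their signals were 207 and 168 in replicates 1 and 2 at the first, and 102 and 151 at the second. Without mir-55b 27 genes had a summit.

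Just below the lowest IDR signal of 147 came several well known genes. In the pooled list mir-124, a microRNA of sensory neurons, had 142, with 78.3 in replicate 1 and 71.4 in replicate 2. mir-62 had 142 as well, and mir-229, mir-64 and mir-65, which share 1 peak, had 141. That peak had 87.5 at rank 1234 in replicate 1 and 59.4 at rank 2591 in replicate 2. Just outside the window, mir-5550 had an IDR summit 759 bp downstream, and mir-353 and mir-8190 had one 1030 and 1054 bp upstream. The 97 genes with a pooled peak but no IDR summit had a median signal of 70.3 for their strongest one.

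None of the 7 genes of the let-7 family and none of the lin-4 family's 2 had an IDR summit. The strongest was mir-241, with 54.0 in replicate 1, 48.3 in replicate 2 and 119 in the pool. mir-48 and mir-793 had no peak in any of the relaxed lists, and mir-84 had 50.1 and 26.6. let-7 had a peak of 38.3 in replicate 1 and none in replicate 2, in a window taken from an annotated gene (chrX:14743590-14745321) that is longer than the hairpin. An IDR summit of signal 171 lay 1881 bp upstream of the 5' end of this gene, outside the window, so that let-7 counted with a summit where the window reached 2000 bp upstream. lin-4 had 49.9 and 45.7, and its relative mir-237 had none. Of the 5 genes of the mir-64 family none had an IDR summit.

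**Figure D5:**
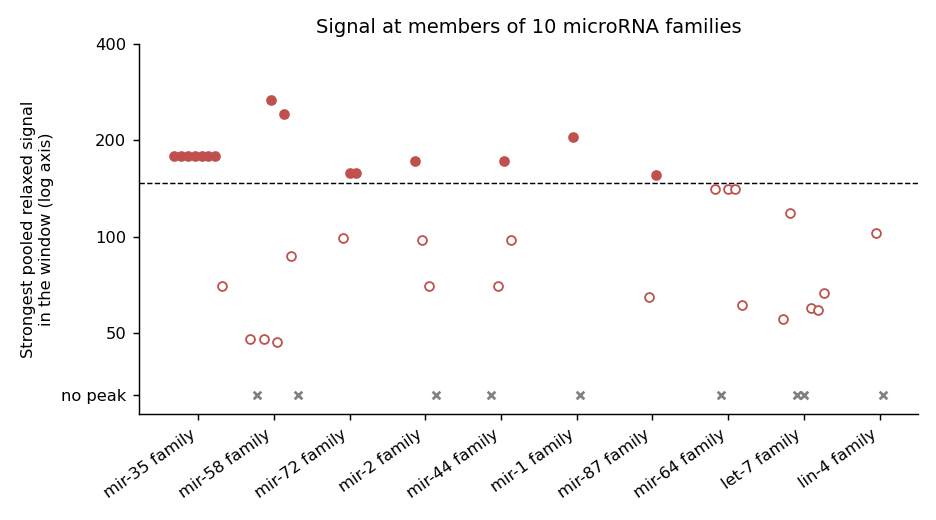
Strongest pooled relaxed signal in the window of each member of 10 microRNA families, on a log axis. Filled points had an IDR summit, open points had none, crosses mark genes without a pooled peak, and the dashed line is the lowest IDR signal of 147. The 7 filled points of the mir-35 family are 1 shared peak, and no point of the let-7, lin-4 and mir-64 families reaches the line.

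By genomic setting, 10 of the 152 genes outside coding genes had a summit (6.58%), 9 of the 74 inside a coding gene on the same strand (12.2%) and 9 of the 29 inside one on the other strand (31.0%). Of the last, 7 were the mir-35 cluster, and without it the share was 2 of 22 (9.09%). Genes with another of the 255 within 2000 bp on the same strand had a summit in 11 of 54 cases (20.4%), at 3 of 19 clusters, and in 4 of 47 (8.51%) without the mir-35 cluster. Genes standing alone had one in 17 of 201 cases (8.46%).

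The genes with a summit were spread over all 6 chromosomes. On II it was 12 of 49 genes (24.5%), or 5 of 42 (11.9%) without the mir-35 cluster, where 5.76% of all genes of II other than piRNA genes had one. On III it was 5 of 27 (18.5%, against 8.15% of such genes there) and on I 5 of 33 (15.2%, against 8.40%). On IV it was 1 of 47 (2.13%, against 5.75%) and on V 1 of 28 (3.57%, against 3.29%). X holds 71 of the 255 genes, more than any other chromosome, and 4 of them had a summit (5.63%), where 8.29% of the X genes other than piRNA genes did.

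Genes of the microRNA pathway were looked at for comparison. Of 20 listed processing and effector genes found in the annotation, 5 had an IDR summit (25.0%), where 4.69% of protein-coding genes did. This list and that of target genes below were chosen with earlier results of these data known. Their shares therefore describe the listed genes only, and enrichment was not tested. vig-1, a component of the RNA-induced silencing complex, had 241 in replicate 1 and 173 in replicate 2, with the summit 404 bp upstream. alg-5, an Argonaute gene, had 331 and 328, with the summit 829 bp upstream. That summit was only 159 bp from the 5' end of another gene, his-68. ain-1, of the GW182 family that silences target messages with Argonaute, had 186 and 169, with the summit 921 bp upstream. nhl-2, a cofactor of the silencing complex, had 222 and 233, and its summit 833 bp upstream lay 590 bp from the 5' end of tag-340. cgh-1, an RNA helicase gene, had 83.9 and 67.9, with the summit 734 bp upstream.

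The central processing genes were among the 15 without a summit. drsh-1, the Drosha gene, had a relaxed peak of 45.4 in replicate 1 and none in replicate 2, and dcr-1, the Dicer gene, and pash-1, the Pasha gene, had none in any relaxed list. The Argonaute genes alg-1 and alg-2 had 49.4 and 72.9 in replicate 1 and 75.7 and 67.4 in replicate 2, and pooled signals of 126 and 144 that fell short of the lowest IDR signal. Of 13 known microRNA target genes, 2 had a summit (15.4%): nhl-2, and sup-26, an RNA-binding protein gene regulated by the mir-35 family, with 164 and 145 and the summit 775 bp upstream. lin-14, lin-28 and lin-41, targets of lin-4 and let-7, had none.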

How the data were processed

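Anti-GFP chromatin immunoprecipitation and sequencing of tagged M03D4.4 was done by the authors in 2 biological replicates, and the deposited files are peak lists. Each replicate and the pool have a relaxed list of peaks and background of 30000 peaks, and the IDR-thresholded list derives from them, per the file headers. Each peak's signal was used as deposited by the authors, and the −log10 q-value they deposited broke ties in ranking. For the aligner, peak caller, IDR threshold and signal scale, the names or values were not given in the sources used here. No read counts are in the lists, which leaves the depth unknown. The ce10 lists were not used here.

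Summits (peak start plus the deposited distance) were placed against Ensembl release 115 on WBcel235 (ce11), and no peak lay past a chromosome end. A gene was counted where a summit fell in its window, which reached from 1000 bp before the 5' end to 500 bp after it. Peaks were matched between lists at an overlap of 50% of either peak. Clusters are genes on 1 strand with neighbours within 2000 bp. Seeds of genes on chromosome I, whose sequences are not printed, were left out of the seed counts and seed groups. The 5 genes with a summit there, mir-1, mir-2, mir-354, mir-1824 and mir-4932, are therefore missing from them, whether or not they share a seed. Intervals are exact Clopper-Pearson at 95%. No test was run, since there is 1 group. Every gene with an IDR summit is named. Others are named where they belong to a listed family with such a gene, or to the mir-35, let-7, lin-4 or mir-58 families. Some genes just outside the window or list are named too. A few more, mir-124 and the pathway and target genes without a summit among them, were named after their values were seen. The genes, lists and words were chosen with earlier results of these data known. Alternatives changed the window, the peak list, the replicates used and the assignment to genes. The placing of summits in windows was tested with simulated peaks set at known places around annotated genes. The other steps were not tested in this way. Tables were handled with pandas 2.3.3 and NumPy 2.4.6 in Python 3.11.15, intervals came from SciPy 1.17.1, and plots were drawn with Matplotlib 3.10.9.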

Additional observations from a re-analysis of the deposited data

How the results depend on the processing

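The count of 28 genes with an IDR summit was 24 with a window of 500 bp upstream, 35 with 2000 bp upstream, and 31 where any base of the peak sufficed. It was 27 without mir-55b, an alternative chosen after seeing the data, and 19 with genes that share a summit counted once. It was 9 with the 711 strongest peaks and 16 with each summit given to its nearest 5' end. In that last count genes of the class ncRNA were passed over, though some lay nearer. At mir-1 such a gene lay 184 bp from the summit, where the 5' end of mir-1 lay 426 bp away. Genes of that class stay among the other genes in the ratio given below. Taking 1 replicate alone, with its 1423 strongest peaks, gave 23 genes without replicate 1 (22 of the 28) and 28 without replicate 2 (24 of the 28). The share relative to all other genes without piRNA genes, 1.77 in the whole list, was 1.49 to 1.81 with a replicate left out, 2.17 with nearest 5' ends, 2.73 without summits near tRNA, snoRNA, snRNA or rRNA genes, and 0.946 with the 711 strongest peaks. The median summit position of -121 bp was -52.0 bp with 500 bp upstream, -278 bp with 2000 bp upstream, -207 bp with the 711 strongest peaks, and -205 to -88.5 bp with a replicate left out. The cause was not tested, beyond the fewer peaks or the other window of each alternative. No paired analysis was possible because there was 1 group. Without read counts, depth sets no stated limit, and a gene without a listed peak is not shown to be unbound.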
